A study of Rattus norvegicus with 7 samples.

Results

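The rat miR-21 precursor gives 2 mature miRNAs, rno-miR-21 and rno-miR-21*, and both were followed here in liver of rats fed the fluorinated surfactant perfluorooctane sulfonate (PFOS). They were chosen by name alone, as the rows of the array annotated with exactly those names. They were 2 of 677 rat miRNAs on the array, with 6 of 1644 probes and 40 of 13540 spots. Adult male Sprague-Dawley rats had eaten a diet with 50 mg PFOS per kg of diet for 28 days (4 arrays, "PFOS") or the same diet without it (3 arrays, "Control"), and liver RNA of 1 rat was hybridised to each Agilent 1-colour array. The submitters had dropped a further Control array that failed their quality checks. The comparison addressed which liver miRNAs differ after dietary PFOS.

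A miRNA is cut from a hairpin transcript, loaded into an Argonaute protein and pairs with target transcripts mainly through its seed, bases 2 to 8. One arm of the hairpin is usually retained and the other, the star strand, is mostly degraded. miR-21 is an abundant miRNA of many tissues that targets transcripts such as Pdcd4, and it is widely described as raised in injured, inflamed, fibrotic and neoplastic liver.

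The mature sequences are shown because each probe reports on one of them and because the seeds set the arms apart. Both, and the hairpin that joins them, are RefSeq sequences of build GRCr8, read 5′ to 3′. In the mature sequences capitals mark the seed, and in the hairpin they mark the mature arms, at bases 18 to 39 and 56 to 77 of 92.
miR-21 (rno-miR-21-5p in RefSeq, chr10:71902653-71902674, minus strand): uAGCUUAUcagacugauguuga
miR-21* (rno-miR-21-3p in RefSeq, chr10:71902615-71902636, minus strand): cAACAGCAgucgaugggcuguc
Mir21 hairpin (chr10:71902600-71902691, minus strand): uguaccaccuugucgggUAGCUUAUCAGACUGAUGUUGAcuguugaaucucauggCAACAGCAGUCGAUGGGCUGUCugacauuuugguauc

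For each arm, none of the other 723 mature rat miRNAs of that collection had the same seed at bases 2 to 8. The longest run of bases shared with another one was 9 for miR-21, with miR-541-5p, and 8 for miR-21*, with miR-433-3p and miR-3570. In the GRCr8 gene table, 0 other genes overlapped the hairpin, which lay beyond the 3′ end of Vmp1, a gene of autophagy on the same strand. Tubd1 was the neighbour on the other side. No other miRNA was therefore grouped with these arms by seed.

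Hepatocyte markers, miR-122 among them, were detected on all 7 arrays for 4 of 4 members. Of 3 neuronal markers, miR-124 and miR-9 were detected on 0 arrays and miR-128 on 3. Of 3 muscle markers, miR-1 and miR-133a were detected on 0 arrays and miR-206 on 5, with normalised signals of 22.7 in PFOS and 42.6 in Control livers. In such a bulk tissue sample, fewer cells of a type and less RNA per cell cannot be told apart. PFOS arrays had more signal in general: the median unscaled signal of the 123 miRNAs detected on every array ranged from 226 to 326 on PFOS arrays and from 133 to 176 on Control arrays. Labelling spike-ins, synthetic RNA added before labelling, were 2.23-fold brighter on PFOS arrays, with no overlap of the groups. Hybridisation spike-ins, added after labelling, overlapped between the groups.

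miR-21 was measured well above background on every array and was one of the strongest signals of the liver. It had rank 2 of 677 by signal on each of the 7 arrays, behind miR-122. That rank was also 2 on every array in the median pixel signal and in the deposited value table. Ranks by hybridisation signal are not ranks by number of molecules, since probes differ in how they bind.

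Before any scaling between arrays, the processed signal of miR-21 (background-subtracted fluorescence, summed over its probes) was 7910, 11583, 17109 and 10984 on PFOS arrays 1 to 4. It was 7786, 7342 and 8667 on Control arrays 1 to 3. PFOS arrays 2, 3 and 4 lay above all Control arrays, while PFOS array 1 lay among them, so the groups overlapped. The means were 11897 ± 3829 (SD, n = 4) and 7932 ± 674 (SD, n = 3), a log2 difference of 0.53 (exact two-sided permutation p = 0.0857, adjusted p = 0.266 over 31 array measures). With 35 splits of the arrays this test cannot give a p below 0.0286.

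Both probes of miR-21 gave the same picture, so the signal did not rest on 1 of them. The probe A_26_P00001210 read from 4940 to 11011 on PFOS arrays and from 4616 to 5571 on Control arrays. The probe A_26_P00001211 read from 2970 to 6098 and from 2727 to 3096. Their ratio stayed between 1.61 and 1.81 over all 7 arrays, with means of 1.68 ± 0.0851 for PFOS (SD, n = 4) and 1.71 ± 0.0792 for Control (SD, n = 3; exact two-sided permutation p = 0.6). Replicate spots of a probe varied by 3.32% to 10.1% (coefficient of variation within an array), and 0 spots were saturated. Between PFOS arrays the SD of A_26_P00001210 was 2545, against at most 899 between its spots on any 1 array.

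**Figure D1:**
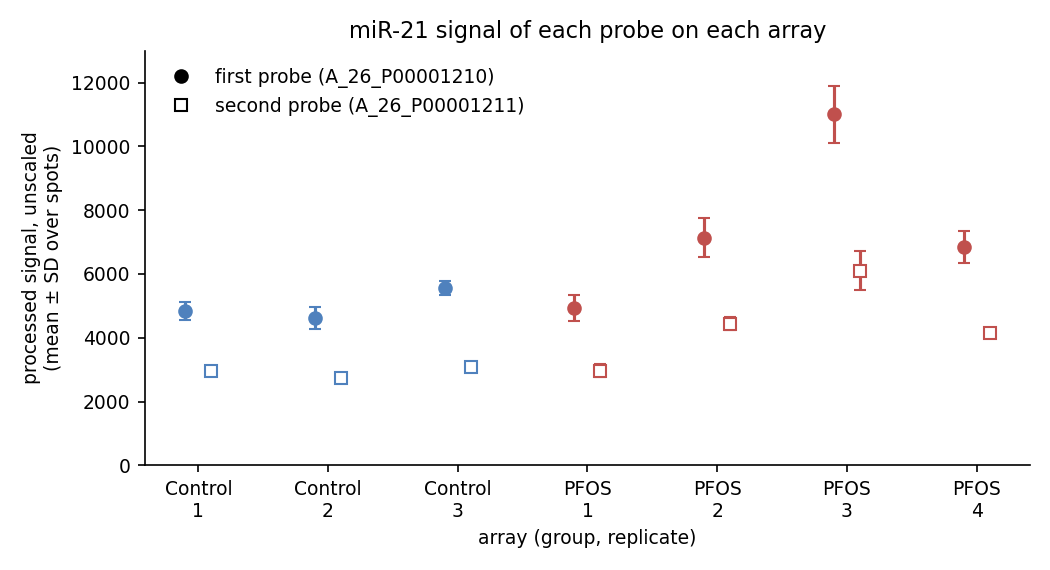
Unscaled processed signal of the 2 miR-21 probes on each of the 7 arrays, as mean ± SD over the replicate spots, with Control arrays in blue and PFOS arrays in red. PFOS replicate 3 is the brightest for both probes, at 11011 and 6098, and PFOS replicate 1 reads 4940 and 2970, close to the Control arrays.

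In the main normalisation miR-21 no longer read higher in PFOS livers, and the groups overlapped. That normalisation scaled each array to the 75th percentile of the miRNAs detected on all arrays and then applied cyclic loess, a smooth correction that depends on signal. After it, the miR-21 signal was 8554, 9278, 11064 and 8667 on PFOS arrays 1 to 4 and 9855, 10858 and 10475 on Control arrays 1 to 3. PFOS arrays 1, 2 and 4 lay below every Control array, and PFOS array 3 lay above every one. On the log2 scale the means were 13.19 ± 0.17 (SD, n = 4) and 13.34 ± 0.07 (SD, n = 3). The fold of PFOS over Control was 0.899, with a 95% interval of 0.749 to 1.08, a log2 difference of -0.15 (SE 0.11). The difference did not pass in limma with Benjamini-Hochberg adjustment over the 175 tested miRNAs (adjusted p = 0.504). To be tested, a miRNA had to be detected on each Control array or, failing that, on 3 or more PFOS arrays. Of these 175, 0 were called lower in PFOS at an adjusted p under 0.05 (0%), and 0 higher. At an unadjusted p under 0.05 there were 19 lower and 15 higher, and miR-21 was in neither count (unadjusted p = 0.208).

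In the main normalisation the value was alike in both slide rows and for each probe. All arrays came from 1 slide and 1 scan, in 2 slide rows that each held both groups. The log2 difference was -0.15 within the first row and -0.12 within the second. Control replicate 1 was the only Control array in the first row, so that value rests on 1 Control liver. Fitted alone among all probes, A_26_P00001210 gave -0.16 (SE 0.12, limma adjusted p = 0.511) and A_26_P00001211 gave -0.17 (SE 0.09, limma adjusted p = 0.298). PFOS replicate 3 was the array that moved the difference most: without it the value was -0.24 (SE 0.07, limma adjusted p = 0.219), and the groups no longer overlapped. The share of all tested miRNAs that separated without that array was not counted, so this separation is only a description. With 75th percentile scaling and no loess, the signal was 8783, 9343, 10547 and 9094 on PFOS arrays and 9365, 10943 and 10577 on Control arrays, a log2 difference of -0.13 (SE 0.10). In that scaling the difference was less alike between the slide rows, at -0.05 within the first and -0.14 within the second.

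In the deposited value table miR-21 was lower in PFOS livers. The authors had normalised this table by cyclic lowess. Its log2 values for miR-21 were 11.96, 11.82, 12.03 and 11.70 on PFOS arrays 1 to 4 and 12.34, 12.65 and 12.52 on Control arrays 1 to 3. Every PFOS array lay below every Control array. The log2 difference was -0.63 (SE 0.11), a fold of 0.647 with a 95% interval of 0.545 to 0.769. It passed in limma over the same 175 miRNAs (adjusted p = 0.0330), though not when all 677 rows of the table were fitted (adjusted p = 0.0780). Of the 175, 9 were called lower in PFOS in the table (5.14%) and 0 higher. The groups did not overlap, in the lower direction, for 32 of the 175 (18.3%). Within slide rows the table's difference was -0.45 and -0.72.

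The call of miR-21 in the table did not survive the loss of some single arrays. The limma adjusted p was 0.0878 without PFOS replicate 2, 0.0621 without PFOS replicate 4, 0.122 without Control replicate 2 and 0.121 without Control replicate 3. It stayed under 0.05 without PFOS replicate 1, PFOS replicate 3 or Control replicate 1, at 0.0254, 0.0443 and 0.0396. The log2 difference itself ran only from -0.71 to -0.55 over these fits.

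**Figure D2:**
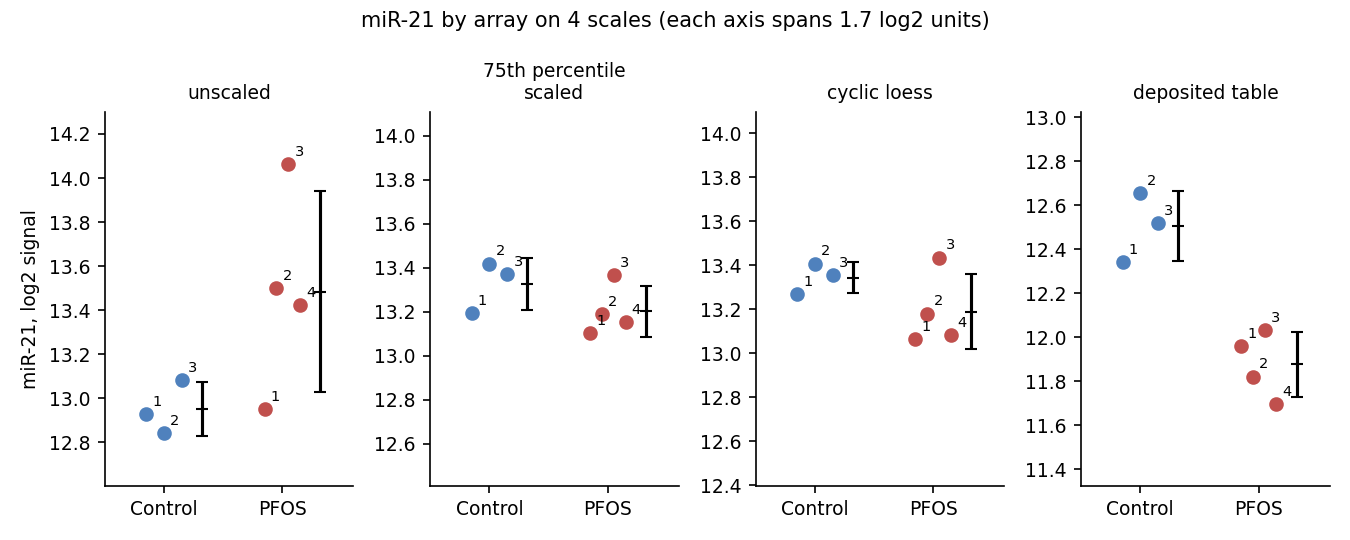
miR-21 on each array (points, numbered by replicate) with the group mean ± SD (bars), as log2 signal before scaling, after 75th percentile scaling, after cyclic loess and in the deposited table; each axis spans the same width of log2 units. The 4 PFOS points lie below the 3 Control points only in the deposited table, where the means are 11.88 and 12.50.

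The table can be set beside the median pixel signal of the same arrays. Whether the table was made from that signal was not tested. Each column of the table followed that array's log2 median pixel signal, which has no background subtracted (Pearson r across the 677 miRNAs, which are not independent replicates, of 0.996 to 0.999). For miR-21, the table minus that pixel signal was 0.03, -0.69, -1.003 and -0.69 on PFOS arrays 1 to 4. It was 0.43, 0.81 and 0.44 on Control arrays 1 to 3. The brightest arrays thus lay lowest in the table against their pixel signal. The group difference of miR-21 was 0.52 in the pixel signal and -0.63 in the table, a gap of -1.15. That gap was -1.20 for miR-122, in median -1.08 for the 10 brightest tested miRNAs and -0.51 for the 123 miRNAs detected on all arrays. It was 0.03 for the 458 miRNAs detected on no array. A cyclic loess of the same pixel signal, run here with equal weights for all miRNAs, left miR-21 at -0.16 (SE 0.11, limma adjusted p = 0.516). How the authors set up their lowess is not stated in the labels.

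In the table miR-21 shared the direction of its neighbours in brightness but lay below most of them, and in the main values most neighbours had the other sign. Counted from the lowest difference of the 175, miR-21 had rank 2 in the table and rank 56 in the main values. The 10 tested miRNAs of highest signal were miR-122, miR-21, miR-22, let-7f, miR-192, let-7a, miR-26a, miR-29a, miR-26b and miR-101b. In the table all 10 had a negative difference, with a median of -0.30 and a range of -0.67 to -0.15, against a median of -0.02 over all 175. In the main values 2 were negative and 8 positive, with a median of 0.06 and a range of -0.15 to 0.15, and miR-21 was the lowest of the 10. The other negative one was miR-192, a hepatocyte miRNA, at -0.09 (SE 0.07). The liver miRNA miR-122 had 0.00 (SE 0.06) in the main values and -0.67 (SE 0.12) in the table. The bright let-7 members let-7f and let-7a had 0.13 (SE 0.08) and 0.07 (SE 0.07) in the main values and -0.25 (SE 0.09) and -0.29 (SE 0.09) in the table.

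**Figure D3:**
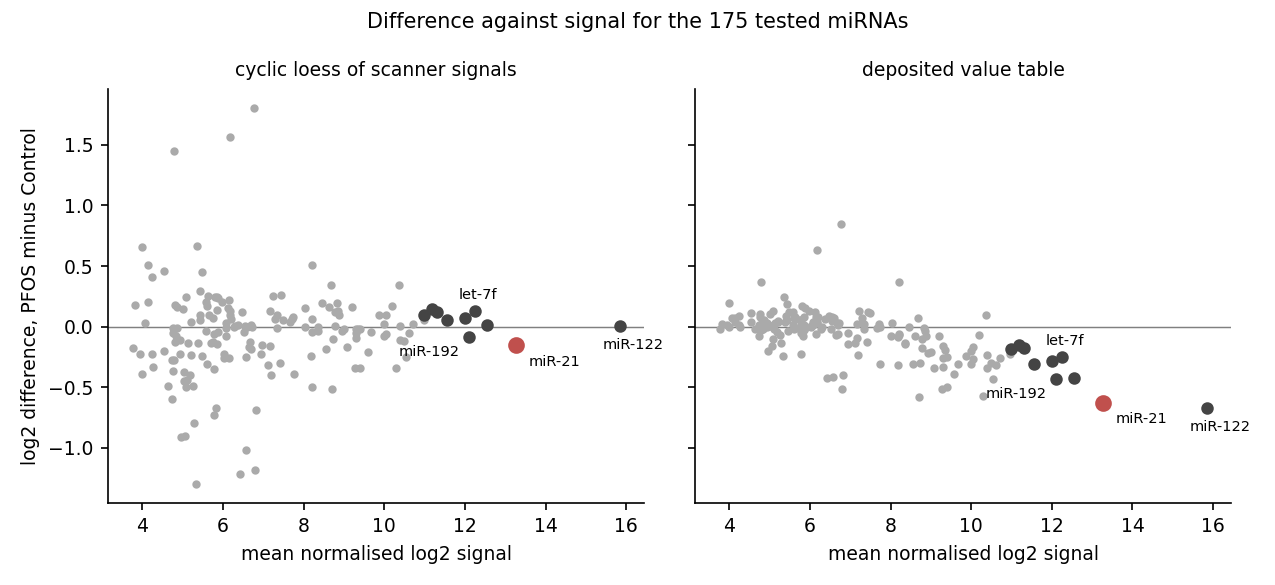
Log2 difference, PFOS minus Control, against mean normalised log2 signal for the 175 tested miRNAs, in the main normalisation (left) and in the deposited value table (right), with miR-21 in red and the other miRNAs among the 10 brightest in dark grey. On the left miR-21 lies at -0.15 and the 10 brightest have a median of 0.06; on the right all 10 lie below 0, with miR-21 at -0.63.

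A ratio within an array needs no scaling between arrays. Against miR-122, the only brighter miRNA, miR-21 did not separate the groups: the log2 ratio was -2.59 ± 0.21 (SD, n = 4) in PFOS and -2.57 ± 0.08 (SD, n = 3) in Control livers (exact two-sided permutation p = 0.886). Against miR-26a the log2 ratio was 1.56 ± 0.15 and 1.84 ± 0.03, and against miR-29a 1.79 ± 0.20 and 2.14 ± 0.18. In those 2 ratios every PFOS array lay below every Control array, each with an exact two-sided permutation p of 0.0571. Over the 9 ratios to the other brightest miRNAs the differences ran from -0.38 to -0.02, and none had an adjusted p below 0.171. These ratios share the miR-21 signal and are not 9 separate results.

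Over the 122 other miRNAs detected on all arrays, the ratio of miR-21 to the other was lower in PFOS livers for 96, with a median log2 difference of -0.18. The groups did not overlap for 14 of the 122, 13 lower and 1 higher, or 11.5%. Over all 7503 pairs of miRNAs detected on all arrays, that share was 16.3%. The share for miR-21 was thus no higher than for pairs in general.

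Against the spike-ins miR-21 went opposite ways. Over the labelling spike-ins its ratio was 0.731, 0.929, 0.961 and 0.976 on PFOS arrays 1 to 4 and 1.29, 1.25 and 1.51 on Control arrays 1 to 3, a log2 difference of -0.59 with no overlap (exact two-sided permutation p = 0.0286, the smallest possible, adjusted p = 0.221 over 31 array measures). Over the hybridisation spike-ins the log2 ratio ran from -3.16 to -2.01 on PFOS arrays and from -3.29 to -3.24 on Control arrays, a log2 difference of 0.62 with no overlap (exact two-sided permutation p = 0.0571, adjusted p = 0.266). Many miRNAs did the same. Of the 175 tested, 54 were lower without overlap against the labelling spike-ins (30.9%) and 99 were higher without overlap against the hybridisation spike-ins (56.6%). The part of the labelling spike-in difference in either value was not tested.

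**Figure D4:**
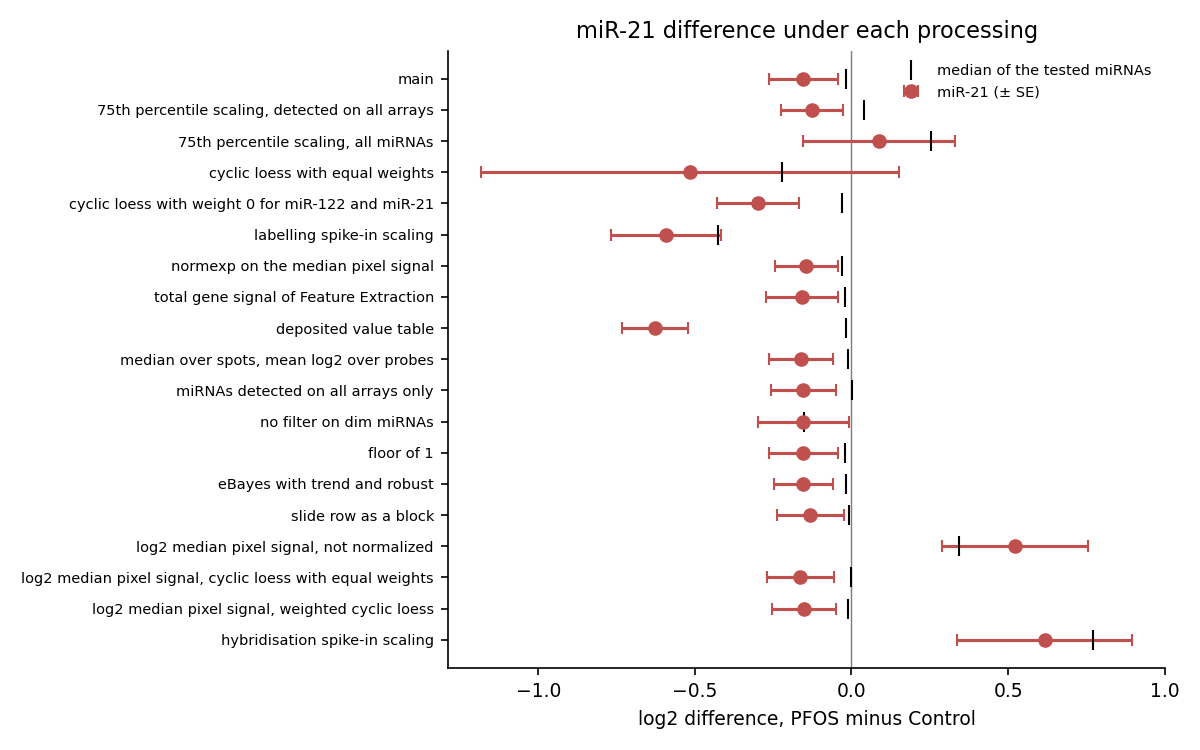
Log2 difference of miR-21, PFOS minus Control (red points, ± SE), in 19 ways of processing the arrays, beside the median difference of all miRNAs tested in each (black marks). The miR-21 value is negative in 16 and positive in 3, and only the deposited value table has an adjusted p under 0.05.

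The sign of the miR-21 value changed with the scaling, and the median of all tested miRNAs moved with it. In 75th percentile scaling over all miRNAs miR-21 was at 0.09 (SE 0.24) and the median of all tested at 0.25. With scaling to labelling spike-ins miR-21 was at -0.59 and the median at -0.42, and with hybridisation spike-ins at 0.62 and 0.77. The difference of miR-21 minus that median was -0.17, -0.17 and -0.15 in these 3 scalings, against -0.14 in the main values and -0.61 in the table. It was -0.003 with no filter on dim miRNAs and 0.18 in the unnormalised log2 median pixel signal. Of the 19 ways of processing, 18 had miR-21 below that median and 1 above it. Some of these ways differ only in the filter, the floor or the moderation of the variance and leave the miR-21 value nearly unchanged. The 19 are therefore not separate results. A scaling by 1 factor per array shifts all miRNAs alike, so the like values in the 3 scalings follow from their construction and are not separate results.

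The star strand miR-21* was at or near background. Detection on an array required a probe with more than 50% of its spots well above background, and miR-21* met that on 1 of 7 arrays, PFOS replicate 3. It therefore did not enter the fit. Its summed processed signal was -4.80, 17.2, 52.0 and 10.9 on PFOS arrays 1 to 4 and 4.65, -0.234 and -5.65 on Control arrays 1 to 3. Values below 0 are spots dimmer than the background that was subtracted. PFOS arrays 2, 3 and 4 were above the Control arrays and PFOS array 1 was among them.

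Over all 7 arrays the groups overlapped in the summed signal of miR-21*, and the difference did not pass. The means of the summed signal were 18.8 ± 24.0 (SD, n = 4) and -0.413 ± 5.15 (SD, n = 3), with an exact two-sided permutation p of 0.2. After 75th percentile scaling the difference was 13.0 (exact two-sided permutation p = 0.229), at -1.32 within the first slide row and 24.2 within the second. Without PFOS replicate 3 it was 6.41. Without PFOS replicate 1 it was 18.9, and the groups did not overlap (exact two-sided permutation p = 0.1, which 3 against 3 arrays cannot go below). It was the only PFOS array not above the Control arrays, so the separation follows from leaving it out and is only a description. How many other miRNAs separated without that array was not counted. In the deposited table the log2 values were 5.52, 5.59, 5.77 and 5.58 in PFOS and 5.54, 5.51 and 5.46 in Control livers. They differed by 0.12 (SE 0.06, limma adjusted p = 0.542 over 677 rows). No fold is given, since miR-21* was not well above background on any Control array and its PFOS mean did not exceed the lowest measurable signal there.

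The 4 probes of miR-21* were not equally bright, and the signal on PFOS arrays came from a pair of them. The probe A_26_P00002013 read 1.30, 11.2, 28.3 and 8.64 on PFOS arrays 1 to 4 and 3.92, 1.502 and 0.525 on Control arrays 1 to 3 (exact two-sided permutation p = 0.143). The probe A_26_P00002012 read from 0.320 to 17.5 on PFOS and from -0.910 to 2.77 on Control arrays. The probes A_26_P00002010 and A_26_P00002011 stayed between -3.89 and 4.93 on all arrays. Of the 20 spots of miR-21* on each array, 0, 5, 9 and 2 on PFOS arrays 1 to 4 exceeded the 99th percentile of that array's negative control spots, against 0, 0 and 0 on Control arrays. That percentile lay between 7.87 and 10.6. The scanner software's own rule for a detected miRNA was met by miR-21* on 3 PFOS arrays and on 0 Control arrays. The share of all miRNAs with such a pattern, by spots or by that rule, was not counted. Both counts are therefore only a description.

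**Figure D5:**
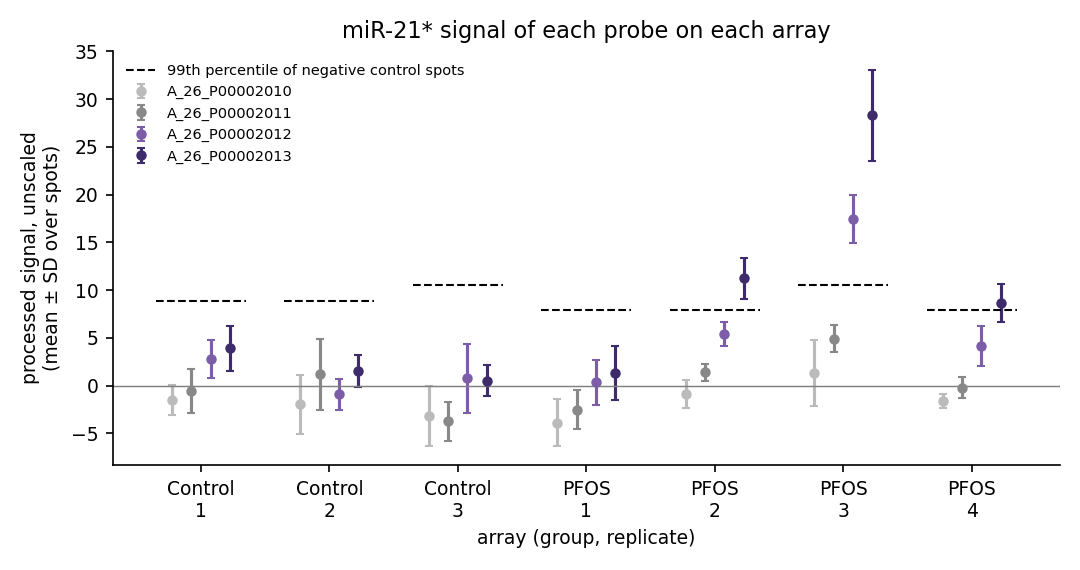
Unscaled processed signal of the 4 miR-21* probes on each of the 7 arrays, as mean ± SD over replicate spots, with the 99th percentile of each array's negative control spots as a dashed line. A_26_P00002013 exceeds the line on PFOS replicates 2, 3 and 4, at 11.2, 28.3 and 8.64, and stays below it on PFOS replicate 1 and on the 3 Control arrays.

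The PFOS arrays on which the software detected miR-21* were also the brighter ones. PFOS replicates 2, 3 and 4 had 182, 200 and 184 detected miRNAs, the 3 highest numbers of the 7 arrays, and the 3 highest unscaled signals of miR-21. PFOS replicate 1 had 161 and the Control arrays had 174, 143 and 131. The part of array brightness in the detection of miR-21* was not tested.

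As a share of the miR-21 signal, miR-21* came to -0.0606%, 0.148%, 0.304% and 0.0992% on PFOS arrays 1 to 4. On Control arrays 1 to 3 it came to 0.0597%, -0.00319% and -0.0652%. The groups overlapped, and the difference of 0.126 percentage points had an exact two-sided permutation p of 0.229. It was 0.0652 without PFOS replicate 3, 0.187 without PFOS replicate 1 and 0.0540 in the total gene signal of the scanner software. Within the first slide row it was -0.0158 percentage points, and within the second 0.236. The star strand thus gave at most 0.304% of the miR-21 signal on any array, in fluorescence and not in molecules, and a log2 ratio of the arms could not be formed where the star signal was below 0.

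Other miRNAs widely described as raised in liver injury had values on both sides of 0, and none passed. The list, chosen with results of these data already known, held 16 names besides miR-21, of which 14 were on the array and 9 were tested. Not on the array under those names were miR-155 and miR-146b-5p, the latter listed beside miR-146b. Among the 9, 7 had a negative and 2 a positive difference, with a median of -0.04, beside 95 negative and 80 positive with a median of -0.02 over all 175. Of the 9, 0 passed in limma. An unadjusted p under 0.05 was found for 3 of the 9, in both directions, beside 34 of all 175. The p53 target miR-34a had a normalised signal of 144 in Control livers and 89.7 in PFOS livers, and its log2 difference was -0.69 (SE 0.25, limma adjusted p = 0.224). The value for miR-221, often raised in proliferating liver cells, was 0.67 (SE 0.21, limma adjusted p = 0.155), and it was detected on 6 of 7 arrays. The myeloid miRNA miR-223 had -0.23 (SE 0.09, limma adjusted p = 0.230).

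The other 6 tested members lay between -0.23 and 0.13. The inflammation-linked miR-146a had -0.03 (SE 0.17). The stellate cell miRNAs miR-199a-3p, miR-199a-5p and miR-214 had 0.13 (SE 0.20), -0.04 (SE 0.18) and -0.11 (SE 0.09). Of these, miR-214 was dim and detected on only 4 arrays. The remaining values were -0.01 (SE 0.12) for miR-31 and -0.23 (SE 0.18) for miR-210, a hypoxia-induced miRNA. The members miR-146b, miR-222, miR-132, miR-181b and miR-224 were detected on 0 arrays. In the deposited table the 9 tested members split into 4 negative and 5 positive, with a median of 0.01. Negative there were miR-34a at -0.40, miR-146a at -0.14, miR-223 at -0.14 and miR-31 at -0.14, which are among the 5 brightest of the 9.

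Markers of liver cell types were read beside miR-21, as scaled signals summed over each list. Leukocyte and Kupffer cell markers, of which 5 of 6 were detected on all arrays, summed to 1111 to 1478 on PFOS and 1166 to 1334 on Control arrays. Stellate cell and mesenchymal markers, 3 of 5 on all arrays, summed to 769 to 1085 and 794 to 1022. Endothelial markers, 2 of 2 on all arrays, summed to 1779 to 1921 and 1466 to 1862, and erythroid markers, also 2 of 2, to 442 to 1137 and 527 to 903. Hepatocyte markers summed to 58997 to 69105 and 66511 to 69691. Those 5 ranges overlapped between the groups. Of the 5 epithelial and bile duct markers, miR-200a and miR-200b were detected on all arrays, miR-429 on 4, and miR-200c and miR-141 on none. They summed to 280 to 576 on PFOS and 62.1 to 174 on Control arrays, without overlap, so this sum rests on only part of the list. The share of all tested miRNAs that separated on this scale was not counted. The part of any of these markers in the miR-21 values was not tested.

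The miRNAs whose normalised log2 values were most like those of miR-21 over the 7 arrays were miR-338, miR-194, miR-223, miR-195 and miR-214, the last detected on only 4 arrays. Their Pearson r was 0.81, 0.80, 0.78, 0.76 and 0.74, and their Spearman rho 0.86, 0.57, 0.68, 0.86 and 0.75. The median r over the 174 other tested miRNAs was 0.09, and 1 of them exceeded 0.8. All points share the array, its brightness and its normalisation. Without the 2 arrays farthest from the median of miR-21, the r of the 5 lay between 0.28 and 0.52. In 75th percentile scaling r was 0.77, -0.04, 0.48, 0.50 and 0.25, and it was 0.21, 0.98, 0.81, 0.84 and -0.30 in the table. The order of the 5 by r thus differed between these 3 forms of the data.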

How the data were processed

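Per the file headers, Feature Extraction 10.7.3.1 gave the intensity of each spot as a processed signal with background subtracted and no normalisation between arrays. The deposited table is in log2 and had been put through cyclic lowess by the authors, per the labels. Its column medians lay between 5.48 and 5.51, with no centring per miRNA, and higher values mean more signal. Per the labels, RNA came from 4 rats per group, 1 rat per array, so p-values measure the spread between rats on 1 slide. Replicate numbers only name arrays, and the number of arrays limits precision.

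Spots with an outlier flag were left out, the others averaged per probe, and the probes of a miRNA summed. Arrays were scaled to the 75th percentile over miRNAs detected on all arrays, a floor of 12.1 was applied (the 1st percentile over detected readings), and cyclic loess (span 0.7, 3 iterations, weight on miRNAs detected on all arrays) was run on log2 values. The group comparison used limma 3.58.1 in R 4.3.3 (lmFit, eBayes) with Benjamini-Hochberg adjustment. Single values were compared by exact permutation. The fit was also run on simulated data in which array brightness was drawn without regard to group. That run cannot show how the fit behaves when brightness differs between groups, as it did here. Files were read with jsonlite 2.0.0 and data.table (version 1.17.8), and plots were made with matplotlib 3.10.9 in Python 3.11.15.

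The members, lists and alternatives were chosen with earlier results of these data known. Named besides both arms were the tested injury-list members, the 10 brightest and the 5 most alike. The planned fits of miR-21* and of the arm ratio on the log2 scale were replaced by linear signals, since miR-21* was mostly undetected. The array was annotated on rn4, so its coordinates were not used. Probe sequences were not used here. Alternatives varied the normalisation, background, signal column, summary, filter, floor, moderation and slide row, and left out each array in turn. Of these, 4 were added after seeing the data.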

Additional observations from a re-analysis of the deposited data

Results flagged for a closer look

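Of 29 measures of both arms and of the arrays that were screened over the 4 PFOS arrays for a single array far from the rest, 1 stood out. The log2 ratio of miR-21 to the labelling spike-ins was -0.45 on PFOS replicate 1, and its gap to the next PFOS array took 0.832 of the range of the 4, just above the limit for 4 samples (Dixon, 95%). Chance gives such a gap in about 1 group in 20.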

How the results depend on the processing

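The main log2 difference of miR-21, -0.15, turned to 0.088 when the 75th percentile was taken over all miRNAs, to 0.52 in the unnormalised log2 median pixel signal and to 0.62 under hybridisation spike-in scaling. It passed only in the deposited table, at -0.63. The last 2 positive values and the 2 loess runs on the median pixel signal were alternatives chosen after seeing the data. Among values that kept direction and side of the threshold, it was -0.30 (limma adjusted p = 0.271) with weight 0 for miR-122 and miR-21 in the loess, -0.59 (limma adjusted p = 0.0674) by labelling spike-ins and -0.52 (SE 0.67) with equal weights. Leaving out single arrays gave -0.24 to -0.11. Quantile normalisation sets miR-21 to 0 by construction, since its rank was 2 on every array.

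The count of called miRNAs, 0 in the main processing, was 3 (all higher) with the 75th percentile over all miRNAs, 7 (all lower) by labelling and 93 (all higher) by hybridisation spike-ins, 22 with normexp (6 higher, 16 lower), 1 with the software's total gene signal, 9 in the table (all lower), 1 with no filter, 4 with slide row as a block (3 higher, 1 lower), 59 (all higher) in the unnormalised pixel signal and 3 in each of its 2 loess runs (1 higher, 2 lower). Without single arrays it was 0. The median of the injury list, -0.04, was 0.21 with the 75th percentile over all miRNAs, -0.47 and 0.73 by labelling and hybridisation spike-ins, -0.16 with equal weights, -0.15 with no filter and 0.27 in the unnormalised pixel signal. Without single arrays it ran from -0.15, without Control replicate 2, to -0.0078.

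Each cause was not tested, except that these 3 scalings moved all miRNAs together, with medians over the tested miRNAs of 0.25, -0.42 and 0.77. For miR-21*, the scaled difference and the share of miR-21 were positive in every alternative run, though both were negative within the first slide row. Without 1 array, the smallest possible exact two-sided p is 0.1 (a PFOS array) or 0.0667 (a Control array), so no call was possible there. Its log2 fits, and the arm ratio's, were not run because its signal was below 0 on some arrays, and weak signal over background is what limits it. No paired analysis was possible because the replicate numbers only name arrays.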
